A study of Mus musculus with 8 samples.

Results

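The SLC25 family of mitochondrial carriers was examined in livers of fat-fed mice given an antisense oligonucleotide (ASO) against Mogat1. An ASO is a synthetic nucleic acid that pairs with a chosen transcript and reduces it. Members were taken by name alone: every probe whose symbol on the array begins with Slc25a, which gave 64 of 45281 probes and 41 of 28913 genes. The 8 mice were males of the C57BL/6J strain, and the liver RNA of each was hybridised to 1 Illumina bead array. The Mogat1 ASO group had 4 mice and the control ASO group, which received a scrambled oligonucleotide, also had 4. Mice of both groups ate a diet with 60% of calories as fat from an age of 6 weeks, and after 14 weeks on it were given 25 mg/kg of their oligonucleotide into the peritoneum 2 times a week for 3 weeks. All are listed at 25 weeks of age, which exceeds the sum of these times. The injections reach the whole animal, both groups were fat-fed and both received an oligonucleotide, so lean or uninjected livers enter no comparison here.

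SLC25 carriers sit mostly in the inner mitochondrial membrane and exchange metabolites, nucleotides and cofactors between the matrix and the cytosol. In hepatocytes they serve the urea cycle, the malate-aspartate shuttle, the export of citrate for fatty acid synthesis and the entry of acylcarnitines for oxidation. Mogat1 makes diacylglycerol from monoacylglycerol. Its single probe was above background on 0 of the 8 arrays, with a mean log2 level of 4.43 ± 0.05 in Mogat1 ASO livers and 4.42 ± 0.01 in control ASO livers (SD, n = 4 each), so the knockdown could not be read from these arrays.

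The array of Mogat1 ASO replicate 1 stood apart from the rest. The first principal component held 43.8% of the variance, and this array lay at 8.36, against 23.6 to 29.19 for the other Mogat1 ASO arrays and -25.76 to -16.74 for the control ASO arrays. On the second component, with 19% of the variance, it lay at 34.42 and the other 7 arrays between -15.65 and 13.92. Median raw signal was 98.64 ± 9.966 on Mogat1 ASO arrays and 100.7 ± 11.97 on control ASO arrays (SD, n = 4 each, exact two-sided permutation p = 0.8286). Among 31 measured SLC25 genes this array had the lowest of the 8 levels for 11. Control ASO replicate 4 had the lowest for 7. The mean standardized level of the carriers was -0.553, -0.047, -0.020 and -0.056 SD units on Mogat1 ASO replicates 1 to 4, against 0.267, 0.340, 0.264 and -0.194 on control ASO replicates 1 to 4. Mogat1 ASO replicate 1 was therefore the lowest array and control ASO replicate 4 the second lowest.

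**Figure D1:**
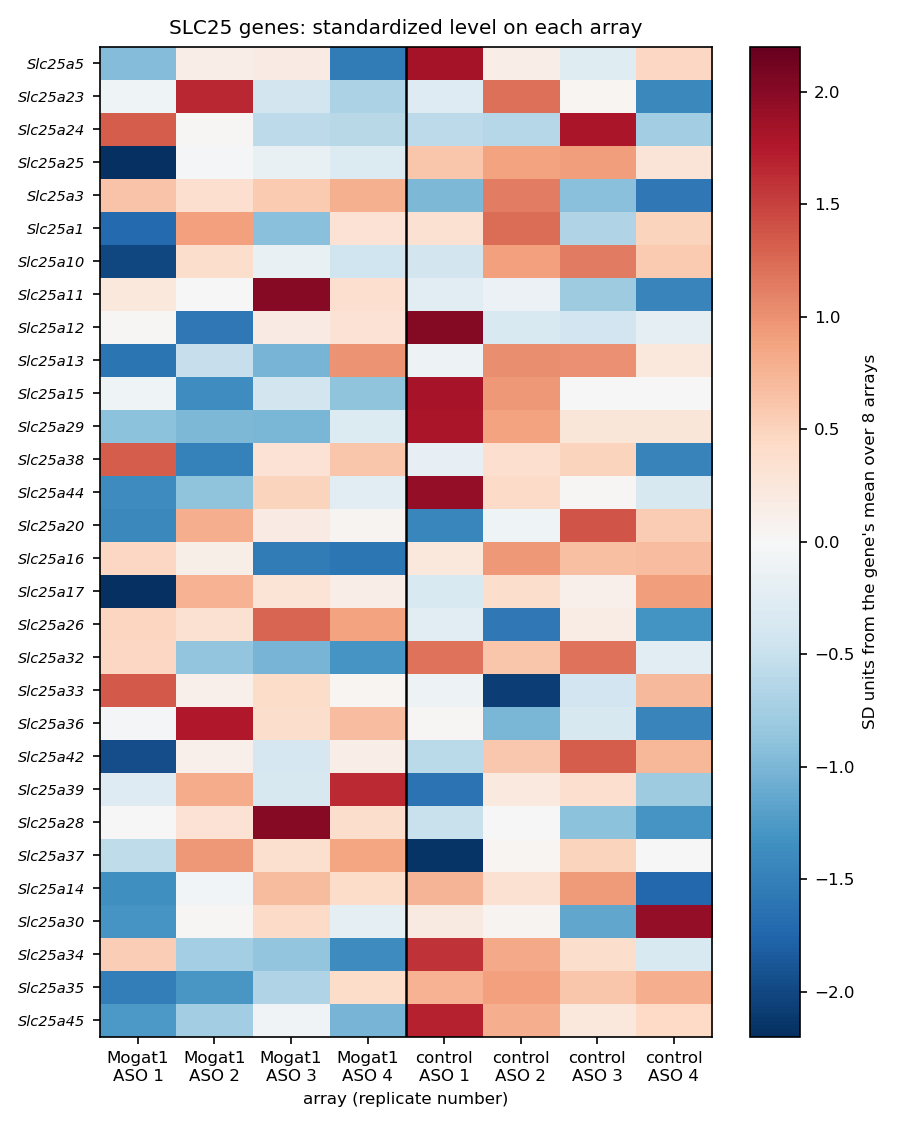
Standardized level of 30 measured SLC25 genes (rows) on each array (columns, Mogat1 ASO left and control ASO right), in SD units from each gene's mean over the 8 arrays. Mogat1 ASO replicate 1 holds the lowest value for 10 of these 30 genes.

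Few carriers differed between the groups. Levels are normalized log2 intensities, and a probe was tested where it was above background (detection p under 0.05) in 4 or more of the 8 livers. A gene is given by its brightest tested probe and passes at an adjusted p under 0.05 (limma). Of the 31 SLC25 genes tested, 3 passed, which is 9.68%, against 13.3% of all 11688 genes tested. All 3, Slc25a25, Slc25a29 and Slc25a45, fell in Mogat1 ASO livers, where 6.12% of all genes fell and 7.14% rose. Of these carriers, Slc25a29 met the detection filter mainly through the control ASO arrays. The median log2 difference over the 31 genes was -0.10, beside -0.004 over all genes, and 20 of 31 carriers (64.5%) lay below 0, beside 50.5% of all genes. At an unadjusted p under 0.05 stood 11 carriers, 35.5% of those tested, beside 28.8% of all genes. The median absolute difference was 0.216 for carriers and 0.172 for all genes, with median standard errors (SE) of 0.135 and 0.129. By probe, 3 of 40 tested passed, against 12.6% of all probes. These shares describe the family, whose members are not independent of each other, and carry no test.

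The groups did not overlap for 8 of 31 carriers, against 19.1% of all genes. Mogat1 ASO arrays lay wholly below control ASO arrays for 5 of them, Slc25a15, Slc25a25, Slc25a29, Slc25a35 and Slc25a45, where 8.8% of all genes did. They lay wholly above for Slc25a11, Slc25a26 and Slc25a28, 3 of 31 genes, where 10.3% of all genes did. The lowest Mogat1 ASO and highest control ASO values were 10.977 and 10.956 for Slc25a11 and 8.25 and 8.225 for Slc25a26. For Slc25a28 they were 11.034 and 11.033. Slc25a15, among those below, was similarly close, at 12.146 (highest Mogat1 ASO) and 12.17 (lowest control ASO). Each of these gaps was smaller than the SD within either group. Slc25a29 and Slc25a35 were each above background in 1 of 4 Mogat1 ASO livers and 4 of 4 control ASO livers. Both met the detection filter mainly through the group where they were higher, which limits their place among the 5. The count of carriers past the threshold depended on single livers. It was 5 without Mogat1 ASO replicate 1 (Slc25a15, Slc25a16, Slc25a25, Slc25a32 and Slc25a45), 1 without Mogat1 ASO replicate 2 (Slc25a25), 3 (Slc25a45) or 4 (Slc25a35), 0 without control ASO replicate 1 or 2, 1 without control ASO replicate 3 (Slc25a45) and 2 without control ASO replicate 4 (Slc25a29 and Slc25a45). In each of these fits 0 carriers rose. Without Mogat1 ASO replicate 4, Slc25a35 met the detection filter through control ASO livers alone, so that call supports no change.

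**Figure D2:**
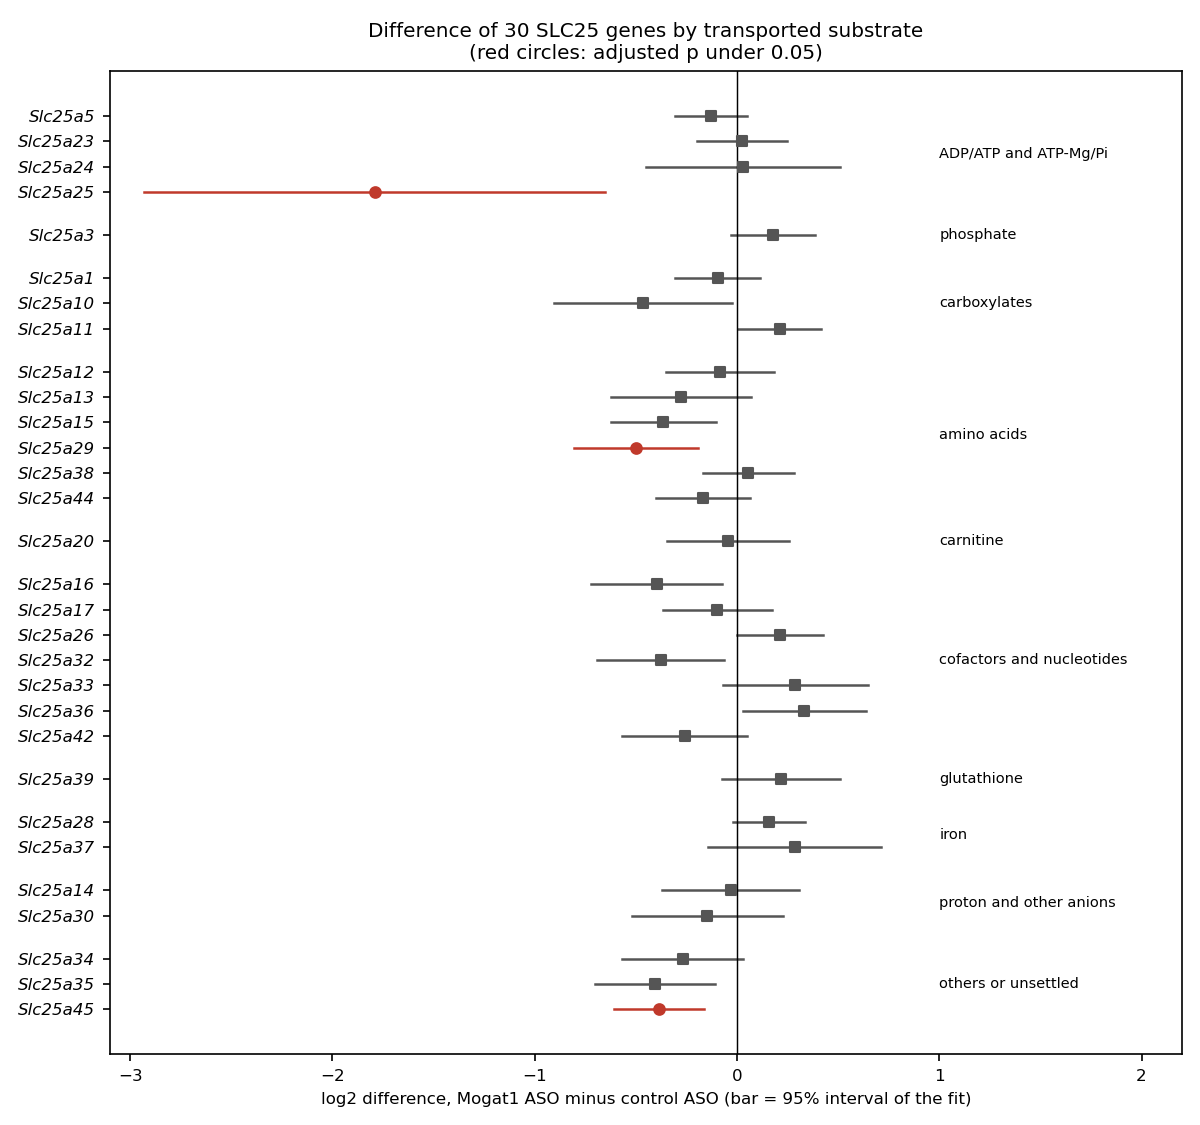
Log2 difference, Mogat1 ASO minus control ASO, of 30 tested SLC25 genes, grouped by what they carry (lines are 95% intervals of the fit). Red circles mark Slc25a25, Slc25a29 and Slc25a45, which passed, and grey squares the 27 shown that did not, whose differences lie between -0.46 and 0.33.

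Slc25a25, a carrier that exchanges ATP-Mg for phosphate and so sets the adenine nucleotide content of the matrix, had the largest difference among the tested carriers. Its log2 level was 6.38, 9.21, 9.05 and 8.89 in Mogat1 ASO replicates 1 to 4, against 10.09, 10.45, 10.51 and 9.64 in control ASO replicates 1 to 4. Every Mogat1 ASO liver lay below every control ASO liver, and Mogat1 ASO replicate 1 lay far below the other 3. The raw signal showed the same order of groups, at 145.6, 667.6, 548.8 and 671.3 in Mogat1 ASO livers and 1096, 1686, 1388 and 950.1 in control ASO livers. The log2 difference was -1.79 (SE 0.52, 95% interval -2.93 to -0.65, n = 4 each), a level 3.46-fold lower with an adjusted p of 0.045 (limma). Without Mogat1 ASO replicate 1 the fall was 2.18-fold, with a log2 difference of -1.12 and an adjusted p of 0.0029. The call ended without each of control ASO replicates 1 to 4 (adjusted p 0.071, 0.111, 0.117 and 0.058) and without Mogat1 ASO replicate 3 or 4 (0.061 and 0.068), while the log2 difference stayed between -2.07 and -1.12 in all 19 alternatives. In whole liver, fewer cells of a type and less RNA per cell cannot be told apart. Of 8 hepatocyte markers 5 were tested by their brightest probe and 0 passed (limma). The brightest probe of Serpina1a, an antitrypsin gene, differed by -0.57 without overlap (adjusted p = 0.065, limma) and Hnf4a by -0.29 (0.094). The second, dimmer probe of Serpina1a fell, with a log2 difference of -0.50 and an adjusted p of 0.035 (limma). The summed linear level of the 8 markers was 153100 to 159500 in Mogat1 ASO livers and 153300 to 171200 in control ASO livers. Apoa1, Cyp2e1 and Ttr were by far the brightest (log2 means 15.32 to 15.81), so the sum mostly restates them. Of 8 macrophage markers 2 rose, Lyz2 and Ms4a7, where 7.14% of all genes rose. The dimmer tested probe of Lyz2 differed by 0.25 (adjusted p = 0.365, limma). Marco differed by 0.62, Cd68 by 0.27 and Vsig4 by 0.22, while Adgre1 differed by -0.02, Csf1r by -0.045 and Clec4f by -0.10. None of these passed. The summed macrophage level was 9789 to 15090 in Mogat1 ASO livers against 8467 to 10300 in control ASO livers. Vsig4, Lyz2 and Clec4f were the brightest, so the sum mostly restates them. The summed level of 5 stellate markers was 2236 to 3022 in Mogat1 ASO livers and 3122 to 3937 in control ASO livers, without overlap. Of 4 tested, 1 fell, Reln (log2 difference -0.41, adjusted p = 0.029, limma). Reln was by far the brightest (log2 means 11.09 in Mogat1 ASO and 11.50 in control ASO livers), so the sum mostly restates it. Acta2 differed by -0.02, Des by -0.15 and Lrat by -0.37, none past the threshold. Col1a1, not tested, had means of 5.47 in Mogat1 ASO and 4.78 in control ASO livers. Of 5 endothelial markers Lyve1 rose by 1.28 (adjusted p = 0.0012) and Stab2 fell by 0.57 (adjusted p = 0.0043), with a summed level of 1289 to 1408 in Mogat1 ASO livers and 1322 to 1609 in control ASO livers. Of 5 adipocyte markers 4 were above background on 0 arrays and Cfd did not pass, with a summed level of 615.3 to 1137 in Mogat1 ASO livers and 948.3 to 4400 in control ASO livers. The part of these in the result was not tested.

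Other carriers of adenine nucleotides did not pass. Slc25a5, the main ADP/ATP exchanger of many tissues outside muscle, was among the brightest carrier probes, at 14.00, 14.12, 14.13 and 13.93 in Mogat1 ASO livers and 14.32, 14.12, 14.08 and 14.16 in control ASO livers. The groups overlapped, with a log2 difference of -0.13 (SE 0.08, adjusted p = 0.344, limma). Slc25a23 and Slc25a24, relatives of Slc25a25 that also carry ATP-Mg and phosphate, differed by 0.03 (SE 0.10) and 0.03 (SE 0.22). Both probes of Slc25a4, the ADP/ATP exchanger of heart and skeletal muscle, were above background on 0 of the 8 arrays, as were probes for all 6 muscle markers examined. Slc25a31, the ADP/ATP exchanger of testis, and Slc25a41 were likewise above background on 0 arrays.

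RefSeq lists 3 transcription starts for Slc25a25, and a single array probe cannot tell their transcripts apart. The windows of 300 bases around the most upstream and the most downstream start are given because this gene carried the largest fall, beside the windows of the other carriers that fell (RefSeq, build GRCm38.p6, 250 bases before to 50 after the start, 5′ to 3′ on the strand of the gene, capitals mark a cAMP response element). Slc25a25 lies on the minus strand of chromosome 2, Slc25a29 on the minus strand of chromosome 12 and Slc25a45 on the plus strand of chromosome 19.
Slc25a25, upstream start, chr2:32451421-32451720: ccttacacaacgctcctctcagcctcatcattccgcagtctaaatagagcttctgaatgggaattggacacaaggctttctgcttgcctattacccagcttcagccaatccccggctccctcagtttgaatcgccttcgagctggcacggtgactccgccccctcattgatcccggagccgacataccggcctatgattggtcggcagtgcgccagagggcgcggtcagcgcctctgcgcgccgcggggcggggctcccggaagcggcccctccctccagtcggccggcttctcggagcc
Slc25a25, downstream start, chr2:32424017-32424316: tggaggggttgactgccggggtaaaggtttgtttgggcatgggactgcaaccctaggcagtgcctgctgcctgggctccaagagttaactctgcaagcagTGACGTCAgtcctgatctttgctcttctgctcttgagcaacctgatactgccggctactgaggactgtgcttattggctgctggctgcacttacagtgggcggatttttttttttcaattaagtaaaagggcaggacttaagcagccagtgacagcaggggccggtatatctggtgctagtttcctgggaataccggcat
Slc25a29, chr12:108835827-108836126: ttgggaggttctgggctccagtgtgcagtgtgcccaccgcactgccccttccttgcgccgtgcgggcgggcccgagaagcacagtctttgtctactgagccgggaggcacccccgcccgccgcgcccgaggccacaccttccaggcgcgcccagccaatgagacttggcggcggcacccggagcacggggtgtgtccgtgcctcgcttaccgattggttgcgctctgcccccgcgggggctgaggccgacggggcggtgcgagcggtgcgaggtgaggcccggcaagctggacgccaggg
Slc25a45, chr19:5877572-5877871: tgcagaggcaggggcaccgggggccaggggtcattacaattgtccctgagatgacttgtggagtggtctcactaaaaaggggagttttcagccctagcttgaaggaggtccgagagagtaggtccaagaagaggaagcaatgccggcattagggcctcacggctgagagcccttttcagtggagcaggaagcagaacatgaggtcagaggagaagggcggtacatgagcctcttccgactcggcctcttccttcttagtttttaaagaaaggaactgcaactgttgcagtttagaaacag
The cAMP response element was searched as TGACGTCA on both strands and occurs in 1.79% of 32851 windows in the promoter table. It begins at base 101 of the downstream Slc25a25 window and is not in the upstream one. That table holds 40 windows of 31 SLC25 genes, a set that is not the 31 tested and includes untested members such as Slc25a31 and Slc25a40. Of the 40 windows, 2 held the element, those of Slc25a25 and Slc25a36. Slc25a36, a carrier of pyrimidine nucleotides, differed by 0.33 (SE 0.14, adjusted p = 0.142, limma). Its tested probe was above background in 3 of 4 Mogat1 ASO livers and 1 of 4 control ASO livers. It thus met the detection filter mainly through the group where it was higher. The difference was 0.12 without background correction. The half-site TGACG, which the full element contains, was in 11 SLC25 windows and in 20.8% of all windows. An E-box (CACGTG) was in 8 SLC25 windows and in 7.15% of all. None of these 3 motifs was found in the printed windows of Slc25a29 and Slc25a45.

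Slc25a29, a mitochondrial carrier of basic amino acids, fell from a level close to background. It stood at 5.23, 5.20, 5.20 and 5.41 in Mogat1 ASO livers, against 6.07, 5.78, 5.59 and 5.59 in control ASO livers. Its probe was above background in 1 of 4 Mogat1 ASO livers and in 4 of 4 control ASO livers, so it met the detection filter mainly through the control ASO arrays. The groups did not overlap. The log2 difference was -0.50 (SE 0.14, adjusted p = 0.039, limma), a level 1.41-fold lower. The difference was -0.18 without background correction and -0.29 with a larger offset, and 8 of 18 alternatives kept the call. Leaving out 1 liver kept it for control ASO replicate 4 (adjusted p = 0.046) and ended it for each of the other 7 (0.051 to 0.101).

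Slc25a45, a carrier whose substrate is less well settled, was bright and shifted little. Its level was 10.47, 10.59, 10.76 and 10.53 in Mogat1 ASO livers and 11.19, 10.97, 10.84 and 10.88 in control ASO livers. The closest pair, Mogat1 ASO replicate 3 and control ASO replicate 3, lay apart by less than the spread within either group, yet the groups did not overlap. The level was 1.31-fold lower in Mogat1 ASO livers (log2 difference -0.39, SE 0.10, adjusted p = 0.029, limma). The adjusted p was 0.057 without control ASO replicate 1, 0.075 without control ASO replicate 2, 0.060 without Mogat1 ASO replicate 2, 0.082 without Mogat1 ASO replicate 4, 0.058 with median scaling, 0.060 with no filter on dim probes and above the threshold in 1 further alternative. The other 12 of 19 alternatives kept the call.

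**Figure D3:**
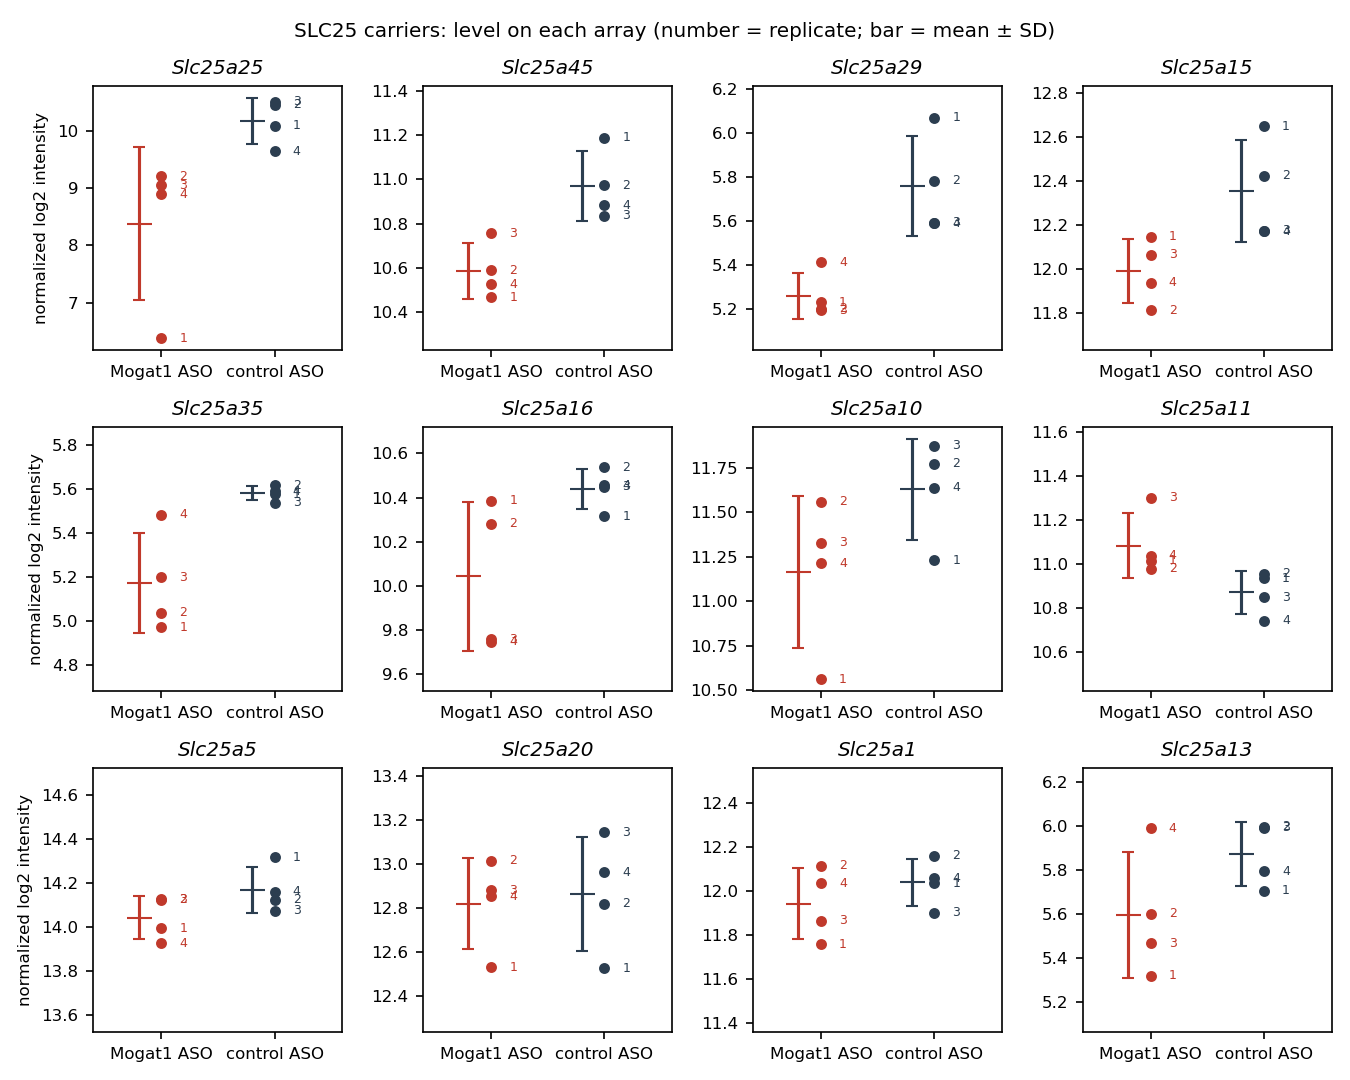
Normalized log2 intensity of 12 SLC25 genes on each array, with Mogat1 ASO left and control ASO right in each panel (numbers are replicates, bars mean ± SD, n = 4 each). Mogat1 ASO replicate 1 stands at 6.38 for Slc25a25 while its group's other livers lie between 8.89 and 9.21.

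**Figure D4:**
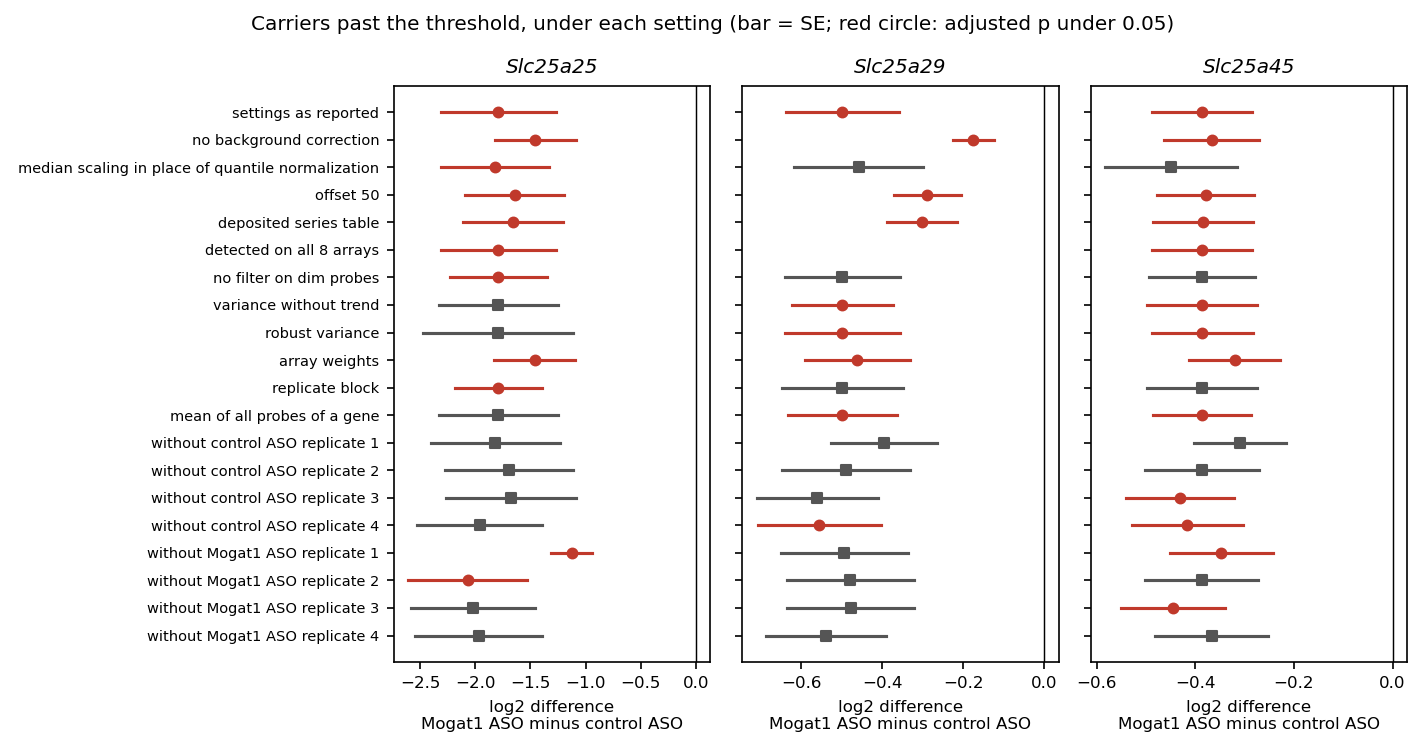
Log2 difference of Slc25a25, Slc25a29 and Slc25a45 (Mogat1 ASO minus control ASO, bars are SE) under each processing alternative; red circles mark an adjusted p under 0.05. All points lie below 0, and the call holds in 10 of 19, 8 of 18 and 12 of 19 alternatives.

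Amino acid carriers other than Slc25a29 did not pass, though Slc25a15 came close on both of its probes. Slc25a15 brings ornithine into the matrix for the urea cycle. Its brighter probe read 12.15, 11.81, 12.07 and 11.94 in Mogat1 ASO livers and 12.65, 12.42, 12.17 and 12.17 in control ASO livers, with all Mogat1 ASO values below all control ASO values. The log2 difference was -0.36 (SE 0.12, adjusted p = 0.068, limma). Its second probe differed by -0.42 (SE 0.15, adjusted p = 0.093) with overlapping groups. Both probes passed without Mogat1 ASO replicate 1, at adjusted p of 0.038 and 0.042, and the second also without control ASO replicate 4 (0.044).

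The aspartate-glutamate exchangers of the malate-aspartate shuttle showed no difference past the threshold. Slc25a13, the form typical of liver, was dim, at 5.32, 5.60, 5.47 and 5.99 in Mogat1 ASO livers and 5.70, 6.00, 5.99 and 5.79 in control ASO livers, and was above background in 3 of 4 and 4 of 4. It differed by -0.28 (SE 0.16, adjusted p = 0.281, limma). Slc25a12, the form typical of heart and brain, differed by -0.08 (SE 0.12). Slc25a38, which supplies glycine for haem synthesis, differed by 0.06 (SE 0.10), and Slc25a44, a carrier of branched-chain amino acids, by -0.17 (SE 0.11, adjusted p = 0.337). Probes for the glutamate carriers Slc25a18 and Slc25a22 and the ornithine carrier Slc25a2 were above background on 0 of the 8 arrays.

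Of 4 carboxylate carriers 3 were tested and 0 passed. Slc25a10, which exchanges malate or succinate for phosphate, stood at 10.56, 11.56, 11.33 and 11.21 in Mogat1 ASO livers and 11.23, 11.77, 11.87 and 11.64 in control ASO livers. Mogat1 ASO replicate 1 was lowest and the groups overlapped, with a log2 difference of -0.46 (SE 0.20, adjusted p = 0.156, limma). Slc25a1, which exports citrate for fatty acid synthesis, read 11.76, 12.11, 11.87 and 12.03 against 12.04, 12.16, 11.90 and 12.06 in control ASO livers, a difference of -0.10 (SE 0.10, adjusted p = 0.566). Slc25a11, the oxoglutarate-malate exchanger, was 11.02, 10.98, 11.30 and 11.04 in Mogat1 ASO livers and 10.94, 10.96, 10.85 and 10.74 in control ASO livers. It lay higher in every Mogat1 ASO liver, by 0.21 (SE 0.09, adjusted p = 0.168), and its other 2 probes differed by 0.11 and 0.19. Slc25a21, a carrier of oxodicarboxylates, was above background on 0 arrays.

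Slc25a20 exchanges acylcarnitine for carnitine and so feeds fatty acid oxidation. Its level was 12.53, 13.02, 12.88 and 12.85 in Mogat1 ASO livers and 12.53, 12.82, 13.14 and 12.96 in control ASO livers. Replicate 1 was the lowest of each group, and the log2 difference of -0.04 (SE 0.14, 95% interval -0.34 to 0.26, adjusted p = 0.872, limma) was smaller than the spread among livers.

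Carriers of cofactors and nucleotides included 8 tested genes, of which 0 passed. Slc25a16, tied to coenzyme A in mitochondria, read 10.39, 10.28, 9.76 and 9.75 in Mogat1 ASO livers and 10.32, 10.54, 10.45 and 10.46 in control ASO livers. Mogat1 ASO replicates 3 and 4 were low, replicate 2 lay just under the control range and replicate 1 within it, and the log2 difference was -0.40 (SE 0.15, adjusted p = 0.102, limma). Slc25a32, a folate carrier, differed by -0.38 (SE 0.14, adjusted p = 0.109). Without Mogat1 ASO replicate 1 both passed, at adjusted p of 0.022 for Slc25a16 and 0.028 for Slc25a32. Slc25a42, which imports coenzyme A, differed by -0.26 (SE 0.14, adjusted p = 0.263) and the peroxisomal carrier Slc25a17 by -0.10 (SE 0.12). Slc25a26, which imports S-adenosylmethionine, was 8.27, 8.25, 8.39 and 8.33 in Mogat1 ASO livers against 8.17, 7.98, 8.23 and 8.01 in control ASO livers. It lay higher in every Mogat1 ASO liver, by 0.21 (SE 0.10, adjusted p = 0.180). Slc25a33, a pyrimidine nucleotide carrier, differed by 0.29 (SE 0.16, adjusted p = 0.282).

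The iron carriers Slc25a28 and Slc25a37 (the mitoferrins), together with the glutathione carrier Slc25a39, had positive differences that did not pass. Slc25a28 was 11.03, 11.07, 11.27 and 11.08 in Mogat1 ASO livers and 10.98, 11.03, 10.93 and 10.88 in control ASO livers. The groups did not overlap but nearly touched, at 11.034 and 11.033. The difference was 0.16 (SE 0.08, adjusted p = 0.239, limma). Slc25a37, the mitoferrin of developing red cells, was 9.25, 9.79, 9.57 and 9.76 against 8.68, 9.47, 9.62 and 9.46 in control ASO livers, a difference of 0.29 (SE 0.19, adjusted p = 0.378). Slc25a39 differed by 0.22 (SE 0.13, adjusted p = 0.322). The summed level of the 6 erythroid markers, of which 4 were tested and 0 passed, was 49330 to 114200 in Mogat1 ASO livers and 47030 to 80880 in control ASO livers. Among those 4, Hba-a1 differed by 0.49 (adjusted p = 0.196, limma), and its part in the values of these carriers was not tested.

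Slc25a3, which brings phosphate into the matrix for ATP synthesis, gave opposite signs on its 2 probes. The brighter read 11.31, 11.27, 11.30 and 11.33 in Mogat1 ASO livers and 11.06, 11.39, 11.08 and 10.98 in control ASO livers, a log2 difference of 0.18 (SE 0.09, adjusted p = 0.244, limma). The dimmer read 9.41, 9.10, 9.06 and 8.97 in Mogat1 ASO livers and 9.42, 9.63, 9.55 and 9.37 in control ASO livers, a log2 difference of -0.36 (SE 0.11, adjusted p = 0.059), and it passed without Mogat1 ASO replicate 1 (adjusted p = 0.0099). Within each array the log2 difference of the brighter over the dimmer probe was 1.90, 2.18, 2.24 and 2.36 in Mogat1 ASO livers and 1.64, 1.76, 1.53 and 1.61 in control ASO livers. This gap was wider in every Mogat1 ASO liver, by 0.54, with an exact two-sided permutation p of 0.0286, the smallest that 70 assignments allow, and 0.157 after adjustment over 11 probe pairs. The pair of probes of Slc25a1 also differed without overlap, by -0.18 (exact permutation p = 0.0286, adjusted 0.157). Of 7 carriers with more than 1 tested probe, 5 had probes that differed in the sign of their difference, and none of the 11 probe pairs differed after adjustment (exact permutation tests, lowest adjusted p = 0.157).

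**Figure D5:**
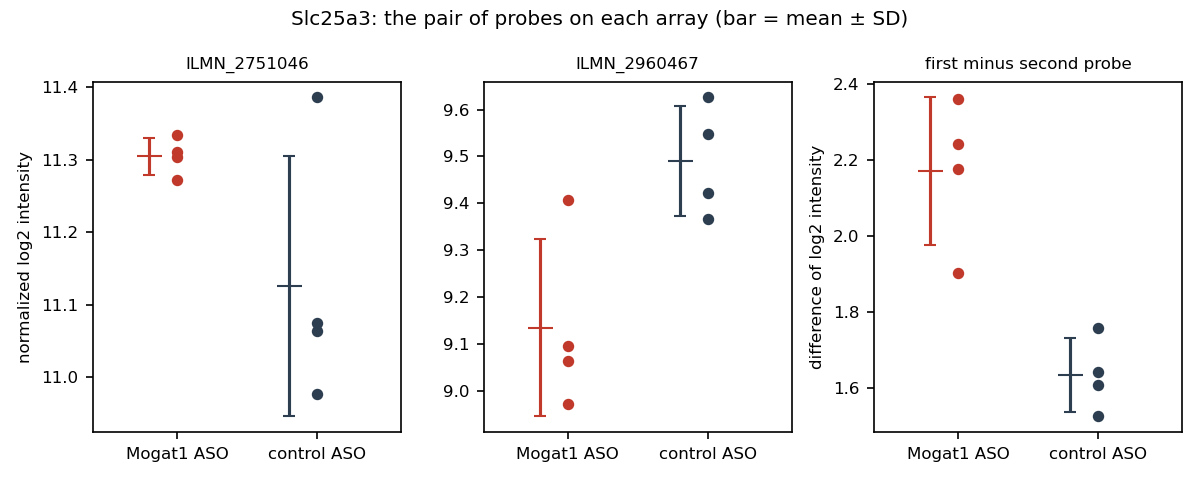
The pair of Slc25a3 probes on each array as normalized log2 intensity, and their difference within each array. Mogat1 ASO is left and control ASO right (points are arrays, bars mean ± SD, n = 4 each). The difference is 1.90 to 2.36 in Mogat1 ASO livers and 1.53 to 1.76 in control ASO livers.

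Among the remaining carriers, Slc25a35, whose substrate is not settled, was 4.97, 5.04, 5.20 and 5.48 in Mogat1 ASO livers and 5.58, 5.62, 5.54 and 5.59 in control ASO livers. It was above background in 1 of 4 Mogat1 ASO livers and 4 of 4 control ASO livers, did not overlap between groups, and differed by -0.41 (SE 0.14, adjusted p = 0.072, limma). Replicate 4 was the Mogat1 ASO liver above background; without it the detection filter was met through control ASO livers alone, so the adjusted p of 0.038 in that fit supports no change. Slc25a34 differed by -0.27 (SE 0.14, adjusted p = 0.227). Slc25a14 and Slc25a30, relatives of the uncoupling proteins, differed by -0.03 (SE 0.15) and -0.15 (SE 0.17). For each of the 28 carriers that did not pass, the 95% interval of the difference lay within 2-fold in either direction, and for 19 within 1.5-fold.

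Of the 64 probes 22 were above background on 0 of the 8 arrays and 35 on all 8. For 10 genes, Slc25a2, Slc25a4, Slc25a18, Slc25a21, Slc25a22, Slc25a27, Slc25a31, Slc25a40, Slc25a41 and Slc25a46, no probe was above background anywhere, and their levels have no comparison. Such a probe does not show that the transcript is missing, since the single probes of Alb (albumin), Fgb (a fibrinogen chain) and Tat (tyrosine aminotransferase), abundant in liver, were also above background on 0 arrays.

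Some carriers escape the symbol rule because the array lists them under older names. Slc25a47, a carrier of hepatocytes listed as AI132487, stood at 14.06, 14.59, 14.66 and 14.44 in Mogat1 ASO livers and 13.59, 14.15, 14.09 and 14.35 in control ASO livers. The groups overlapped, with a difference of 0.39 (SE 0.17, adjusted p = 0.152, limma). Slc25a47 is the next protein-coding gene to Slc25a29 on chromosome 12. The log2 difference of Slc25a29, -0.50, came from a probe that met the detection filter mainly through control ASO livers. That limits any contrast of these neighbours. Slc25a53, listed as Mcart6, lay higher in every Mogat1 ASO liver, by 0.31 (SE 0.11, adjusted p = 0.080). The probe of Slc25a51, the NAD carrier, listed as Mcart1, was above background on 0 arrays. A second probe of Slc25a37, listed as Mscp, differed by 0.20 (SE 0.21).

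Genes that work with the carriers were counted in 8 lists of named genes. Of 86 tested, 14 passed, or 16.3% against 13.3% of all genes: 12 fell (14%, against 6.12% of all genes) and 2 rose. The lists were chosen with earlier results of these data known, so these shares carry no test. From 6 to 21 passed when a single liver was left out. For inner and outer membrane transporters other than SLC25 carriers, 5 of 16 fell and 1 rose. Sfxn5, a sideroflexin of the inner membrane, was 7.11, 7.95, 8.01 and 7.93 in Mogat1 ASO livers and 8.91, 8.80, 8.78 and 8.67 in control ASO livers, without overlap and 2.05-fold lower (log2 difference -1.04, SE 0.18, adjusted p = 0.0047, limma). Mpc2, a subunit of the mitochondrial pyruvate carrier, was 9.11, 9.04, 8.76 and 8.78 against 9.43, 9.42, 9.54 and 9.55 in control ASO livers, 1.47-fold lower (difference -0.56, SE 0.10, adjusted p = 0.0062). Both calls held in all 18 alternatives. Letm1, a cation exchanger, fell by 0.45 (SE 0.10, adjusted p = 0.018, but 0.060 without control ASO replicate 2 and 0.058 without Mogat1 ASO replicate 4). The fall of Mcu, the calcium uniporter (adjusted p = 0.045), and the rise of Micu2, a regulator of it (0.039), kept their calls in 5 of 17 and 8 of 18 alternatives. When a single liver was left out, Mcu passed for 0 of the 8 (adjusted p 0.060 to 0.095), and Micu2 lost its call without control ASO replicates 1 to 3 and without Mogat1 ASO replicates 2 to 4 (0.065 to 0.109).

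Of the 9 urea cycle and ammonia genes tested, 2 fell and 0 rose, and the median log2 difference of the list was -0.40. Glud1, glutamate dehydrogenase of the matrix, read 13.49, 13.55, 13.53 and 13.51 in Mogat1 ASO livers and 13.97, 13.94, 13.97 and 13.95 in control ASO livers, a tight and separate pair of groups. It fell by 0.44 (SE 0.06, adjusted p = 0.0018, limma) and passed in all 18 alternatives. Oat, which interconverts ornithine and glutamate semialdehyde, fell by 0.65 (SE 0.18, adjusted p = 0.035), with overlapping groups, and the call ended without control ASO replicate 2, 3 or 4 or Mogat1 ASO replicate 2 or 3 (0.064 to 0.101). Ass1 (-0.71, SE 0.24, adjusted p = 0.073), Nags (-0.31, SE 0.11, 0.091), Otc (-0.44, SE 0.17, 0.125) and Cps1 (-0.40, SE 0.20, 0.225), enzymes of the cycle, did not pass, nor did the ornithine carrier Slc25a15, at -0.36.

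Of the 9 genes tested for coenzyme A, NAD and one-carbon metabolism, 2 fell. Pank3, a pantothenate kinase that starts coenzyme A synthesis, was 6.51, 6.51, 6.13 and 5.86 in Mogat1 ASO livers and 7.02, 7.53, 7.25 and 6.93 in control ASO livers, without overlap. Its difference was -0.93 (SE 0.18, adjusted p = 0.0079, limma) and it passed in all 18 alternatives, with a difference of -0.49 without background correction. Pank1, another pantothenate kinase, fell by 0.47 (SE 0.11, adjusted p = 0.016), a call that ended without control ASO replicate 2 or 3 or Mogat1 ASO replicate 3 or 4 (0.054 to 0.058). The coenzyme A carriers Slc25a42 and Slc25a16 stood beside them at -0.26 and -0.40, neither past the threshold.

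Haem and iron-sulphur genes gave 2 falls and 1 rise among 12. Cpox, an oxidase of haem synthesis, fell by 0.72 (SE 0.17, adjusted p = 0.019, limma, but 0.062 without Mogat1 ASO replicate 3) and by 0.36 without background correction. Alad, an earlier enzyme of the pathway, fell by 0.39 (SE 0.10, adjusted p = 0.024), a call that ended without control ASO replicate 2, 3 or 4 or Mogat1 ASO replicate 3 or 4 (0.051 to 0.075). Nfs1, the cysteine desulphurase, rose by 0.36 (SE 0.11, adjusted p = 0.048), and passed when 1 liver was left out only without Mogat1 ASO replicate 1, the other 7 fits giving 0.065 to 0.125. Of 12 genes for import of carriers into the inner membrane, Timm8a1 was the 1 to pass, falling by 0.40 (SE 0.10, adjusted p = 0.024), and the call ended without control ASO replicate 2 or 3 or Mogat1 ASO replicate 2, 3 or 4 (0.054 to 0.078).

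In the lists for the malate-aspartate shuttle and citrate export (10 tested), the carnitine shuttle (8) and mitochondrial biogenesis (10), 0 genes passed. Their median log2 differences were -0.16, -0.19 and -0.08. Acly, which splits exported citrate, differed by -0.33 (SE 0.13, adjusted p = 0.111, limma), and Tfam, which packages mitochondrial DNA, by -0.05 (SE 0.10). Ppargc1a and Ppargc1b, coactivators of mitochondrial genes, differed by -0.37 (SE 0.18, adjusted p = 0.218) and 0.51 (SE 0.24, adjusted p = 0.189).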

How the data were processed

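Per the file headers, the deposited non-normalized table holds 2 columns per array, the intensity of each probe and its detection p-value. That p-value was read as the share of negative controls at least as bright. The deposited series table gives intensity after processing, on a linear scale, with 38.02% to 38.1% of values below 0. It served as an alternative, and the software behind it was not given in the sources used here. Per the labels' protocols, RNA was amplified by T7 transcription and labelled with biotin. Signals were corrected by normexp with background inferred from detection p, then quantile normalized and set to log2 with an offset of 16 (neqc). Probes with detection p under 0.05 on at least 4 of 8 arrays (16487 probes) entered lmFit and eBayes with a variance trend, two-sided, all 8 arrays, no covariate, with Benjamini-Hochberg adjustment over those probes and a threshold of 0.05 (limma 3.58.1, R 4.3.3, version 1.17.8 of data.table; Python 3.11.15, matplotlib 3.10.9 for windows and figures). On simulated data for 16487 probes, the share of changed probes recovered was 55.2% for 1.5-fold, 86.6% for 2-fold and 98.5% for 4-fold changes. Of 171 calls 11 were false. The simulation changed far fewer probes than passed in the real data (171 calls in all, against 2078). Its noise was independent and normal, with no outlying array. These shares describe that setting and not the recovery in these livers.

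The members, roles, partner lists and markers were chosen with earlier results of these data known. Named genes were all members past the threshold or with adjusted p up to 0.1, carriers with known liver roles, the brightest members, and up to 4 members past the threshold per partner list; Mcu, Micu2 and other genes outside that rule were named after their values were seen. Symbols were updated through the RefSeq table of GRCm38.p6: 27740 were current, 8037 updated, 122 matched several genes and 9382 none. Alternatives were no background correction, median scaling, an offset of 50, the series table, stricter and no detection filters, other variance models, array weights, a replicate block, the mean of a gene's probes and leaving out each liver. Intensities carry no read depth, and precision rests on the number of mice. Sample names mark separate mice. Slide and scan day, not given in the sources used here, could not be tested. No pair of arrays was identical (rank correlations 0.9097 to 0.9251). Some genes that were tested and enter the counts are not reported here by name.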

Additional observations from a re-analysis of the deposited data

Results flagged for a closer look

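In 80 groups of 4 arrays (each of 40 tested SLC25 probes in each group), 5 held an array far from its group by Dixon's criterion for 4 values (the gap to the next value over the range); chance flags about 1 in 20 groups. For Slc25a25, Mogat1 ASO replicate 1 read 6.38 on the log2 scale, and the other Mogat1 ASO livers read 8.89 to 9.21. For Slc25a29, Mogat1 ASO replicate 4 read 5.41, against 5.2 to 5.23 in the rest of its group, and it was the lone Mogat1 ASO liver in which the probe was above background. For Slc25a12, Mogat1 ASO replicate 2 read 7.56 (others 7.81 to 7.86) and control ASO replicate 1 read 8.13 (others 7.74 to 7.77). For Slc25a24, control ASO replicate 3 read 6.06 (others 5.18 to 5.25).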

How the results depend on the processing

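The number of SLC25 genes past the threshold was 3, all lower, and became 1 with median scaling, 1 with no filter on dim probes and 6 with array weights; leaving out each liver in turn gave 0 to 5. For SLC25 probes the count was 3, against 1 with median scaling, 1 with no filter, 8 with array weights and 0 to 7 when a liver was left out. Over all genes 1549 passed, against 951 with median scaling (460 higher, 491 lower), 2610 with array weights and 851 to 2226 when a liver was left out. For the partner lists 14 passed, against 9 with median scaling, 24 with array weights and 6 to 21 when a liver was left out. In each of these settings 0 SLC25 genes rose. The median log2 difference of the SLC25 genes stayed between -0.154 and -0.062. The sample titles number the mice and name no pairing, and whether the numbers pair them was not tested. Over the tested probes, deviations from the group mean correlated at 0.199, 0.079, -0.031 and 0.000 for same-numbered arrays. For differently numbered arrays they correlated at -0.305 to 0.268. With a replicate block 3 SLC25 genes (Slc25a10, Slc25a15 and Slc25a25), 3 SLC25 probes, 14 partner genes and 1489 genes passed. The SLC25 median was then -0.096. The call of Slc25a25 also ended without a variance trend (adjusted p = 0.058), with robust variance (0.149) and with the mean of probes per gene (0.051). Of 993 values of single probes under alternatives, 889 counted as unchanged, 86 lost a call and 14 gained one. The 889 were called in the same direction in both fits, or uncalled in both with a shift below a limit somewhat larger than the SE. Uncalled values were not checked for sign. Another 4, uncalled in both, shifted by more, and 0 called values reversed. The cause of these changes was not tested. The differences of dim probes such as Slc25a29, Slc25a35, Slc25a36 and Slc25a13 shrank without background correction. For Slc25a29, Slc25a35 and Slc25a36 they were then -0.175, -0.14 and 0.12, against -0.50, -0.41 and 0.33. Brighter probes shrank too, such as Slc25a25, from -1.79 to -1.46, and Sfxn5, from -1.04 to -0.78.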
